A study of Mus musculus with 14 samples.

Results

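Cytochrome P450 genes were examined in mouse mast cells before and after coculture with fibroblasts. The genes are all those whose name in the array files is Cyp followed by a digit, without Cyp51. They comprised 81 genes on 114 probes, of 27975 named genes or transcripts on the array, and each gene is represented by its brightest probe on average. The family was picked because members of the Cyp4a subfamily were lower in coculture, so the coculture values of Cyp4a genes are given as a description, with no test. The 4 groups of bone marrow-derived mast cells (BMMCs) were hybridised, 1 array per sample: 3 cocultured samples labelled Pla2g3 knockout, 4 cocultured samples labelled wild-type, 4 knockout BMMC samples and 3 wild-type BMMC samples. Both genotypes carried the strain label C57BL/6.129Sv-N3, the ages and sexes of the donors were not given in the sources used here, and Pla2g3 encodes a secreted phospholipase A2 (group III). All cells were grown from bone marrow in IL-3 medium for 4 to 6 weeks to over 97% Kit+ FcεRIα+ cells. Cocultured cells were then kept for 96 h on Swiss 3T3 fibroblasts, an established mouse line, with 100 ng/ml stem cell factor, detached with trypsin and reseeded, and nonadherent cells were collected at a purity of over 99% by flow cytometry. The labels do not say which samples came from separate animals, so the p-values describe variation among these samples, which may be technical.

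Cytochrome P450 enzymes are haem-containing monooxygenases that insert an oxygen atom into fatty acids, sterols, retinoids, vitamin D and foreign compounds. Microsomal members receive electrons from Por, and mitochondrial members from Fdxr and Fdx1. Cyp4a and Cyp4f enzymes hydroxylate the far end of fatty acids and eicosanoids, and mouse Cyp4a genes are classic targets of the fatty acid receptor Ppara in liver. Cyp11a1 starts steroid synthesis from cholesterol, Cyp7b1 hydroxylates oxysterols, and Cyp26b1 clears retinoic acid.

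The Cyp4a genes lie side by side on mouse chromosome 4, and 4 of their 9 probes are shown because their readings separated closely related genes, and separated probes of 1 gene. Each is 60 bases, from the scanner files, on the + strand of mm9. In the first, capitals mark the 9 bases that lie, in the reading frame that starts at the first base of the probe, at the conserved oxygen-binding motif of P450 enzymes. That stretch occurred in 9 of 41174 probes on the array, of which 1 was a P450 probe.
Cyp4a10 A_52_P340136: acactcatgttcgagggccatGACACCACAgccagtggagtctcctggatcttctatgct
Cyp4a10 A_52_P6588: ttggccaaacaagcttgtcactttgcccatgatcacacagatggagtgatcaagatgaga
Cyp4a12b A_51_P433360: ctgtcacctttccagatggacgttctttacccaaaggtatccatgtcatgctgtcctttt
Cyp4a31 A_52_P218449: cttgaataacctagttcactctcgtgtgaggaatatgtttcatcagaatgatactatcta
These probes map to chr4:115198154-115198213, chr4:115197445-115197926, chr4:115106662-115107596 and chr4:115242824-115242883, in the order shown. The intervals longer than 60 bases are those the files give for the probe. Over the 36 pairs of Cyp4a probes, the longest run of bases that 2 probes shared was 10.

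Levels are log2 signal with the array's own 75th percentile set to 0, and each probe is compared only with itself. The scanner software marked 42.6% to 55.9% of probes per array as well above background. Of 11 mast cell markers, 9 to 11 were above background on every array. Among markers of other blood lineages, 2 of 9 macrophage markers rose in knockout cells, 2 rose and 1 fell in wild-type cells, 1 of 5 erythroid or megakaryocyte markers fell in each genotype and 0 of 2 neutrophil markers were called, where 14.3% of all genes were called in knockout cells and 12.9% in wild-type cells. Fibroblast markers were also present in coculture: of 28 tested, 15 to 27 were above background on knockout cocultured arrays and 18 to 28 on wild-type cocultured arrays, against 3 to 7 on knockout BMMC arrays and 5 to 7 on wild-type BMMC arrays. Col1a1, Col3a1, Dcn and Serpinh1 were above background on every cocultured array and on 0 BMMC arrays. The Pla2g3 probe went against the labels. It read -1.43, -1.31, -1.60 and -1.96 in BMMCs labelled knockout, all above background, against -3.75, -4.69 and -2.95 in BMMCs labelled wild-type, of which 1 was above background. In coculture it read -3.21, -1.78 and -1.97 in cells labelled knockout, against -4.33, -3.25, -4.14 and -2.22 in cells labelled wild-type, with overlapping groups. Which part of the gene was deleted is not given in the sources used here, so the probe at chr11:3393221-3393280 checks nothing if it lies outside that part. Whether labels were exchanged was not tested, and genotype directions below are those of the labels. Knockout cocultured 3 and wild-type cocultured 3, both on slide 4, the slide with a scan date of its own in the file headers, each correlated across genes more with the cocultured arrays of the other label (mean r of 0.938 and 0.955) than with those of their own (0.916 and 0.911), and wild-type cocultured 1 did so by a smaller margin (0.947 against 0.938). Counts below are therefore also given without the slide 4 pair. Because the pair stood out by its likeness to the other label, values without it describe the remaining arrays, and their p-values are not independent tests.

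Most of the family was not detectable at this signal. Of the 81 genes, 41 were well above background on 0 arrays, 6 on 1 or 2 arrays and 34 on at least 3, and those 34 were tested. Family 2, the largest, held 40 genes, of which 13 were tested and 23 were above background on 0 arrays. Family 4 held 16 genes, of which 11 were tested. The 9 genes above background on all 14 arrays were Cyp1b1, Cyp2c70, Cyp2d9, Cyp4f13, Cyp4f16, Cyp4f18, Cyp17a1, Cyp20a1 and Cyp46a1. Just inside the limit of 3 arrays stood Cyp2c37 and Cyp2c55, each on 3 arrays, and just outside stood Cyp1a1 and Cyp2b13, each on 2 cocultured arrays. P450 genes above background numbered 15, 15 and 26 on knockout cocultured arrays, 23, 33, 21 and 31 on wild-type cocultured arrays, 22, 22, 16 and 26 on knockout BMMC arrays, and 18, 24 and 30 on wild-type BMMC arrays. The groups overlapped, and arrays with few such genes also had a smaller share of all tested genes above background (75.4% on knockout BMMC 3 and 79.0% on knockout cocultured 1, the 2 lowest).

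Coculture separated probes of 3 Cyp4a genes sharply from the other Cyp4a probes. Cyp4a12a, a fatty acid hydroxylase that is male-predominant in mouse kidney and liver, read -3.93, -4.12 and -4.10 in knockout cocultured cells and -3.41, -3.07, -3.77 and -3.10 in wild-type cocultured cells. Before coculture it read 2.08, 1.52, 1.24 and 1.86 in knockout BMMCs and 3.36, 1.83 and 3.28 in wild-type BMMCs. All cocultured arrays lay far below all BMMC arrays, by 5.73 ± 0.36 (SE) on the log2 scale between the means of knockout cells and by 6.16 ± 0.36 between those of wild-type cells. The neighbouring Cyp4a12b, a near copy, was well above background on all 7 BMMC arrays and on 0 of 7 cocultured arrays. It read -5.58, -6.04 and -6.44 in knockout cocultured cells and -6.03, -4.84, -6.16 and -5.46 in wild-type cocultured cells, against 2.14, 1.53, 1.15 and 2.36 in knockout BMMCs and 3.25, 1.60 and 3.25 in wild-type BMMCs. Taken against the lowest signal above background on each array, it was at least 58.7-fold lower in knockout cocultured cells than in knockout BMMCs. In wild-type cells it was at least 109-fold lower in coculture. Among the 7 BMMC arrays the Cyp4a12b probe followed the Cyp4a12a probe (Pearson r = 0.96, Spearman rho = 0.93). Whether these 2 probes read separate transcripts was not tested. Within slides the Cyp4a12a difference was -6.02, -5.64 and -5.96 in knockout cells on slides 1, 2 and 4, and -5.24 and -6.36 in wild-type cells on slides 2 and 3. With normexp background correction the Cyp4a12a difference was smaller, -2.25 in knockout cells and -3.61 in wild-type cells. That setting added an offset of 50 units to every signal, which by itself shrinks differences between dim and bright readings. With the authors' normalized intensities, where values under 1 were set to 1 before log2, the Cyp4a12a difference was -8.20 in knockout cells and -9.12 in wild-type cells. The Cyp4a12b difference with normexp was -2.52 in knockout cells and -3.83 in wild-type cells.

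**Figure D1:**
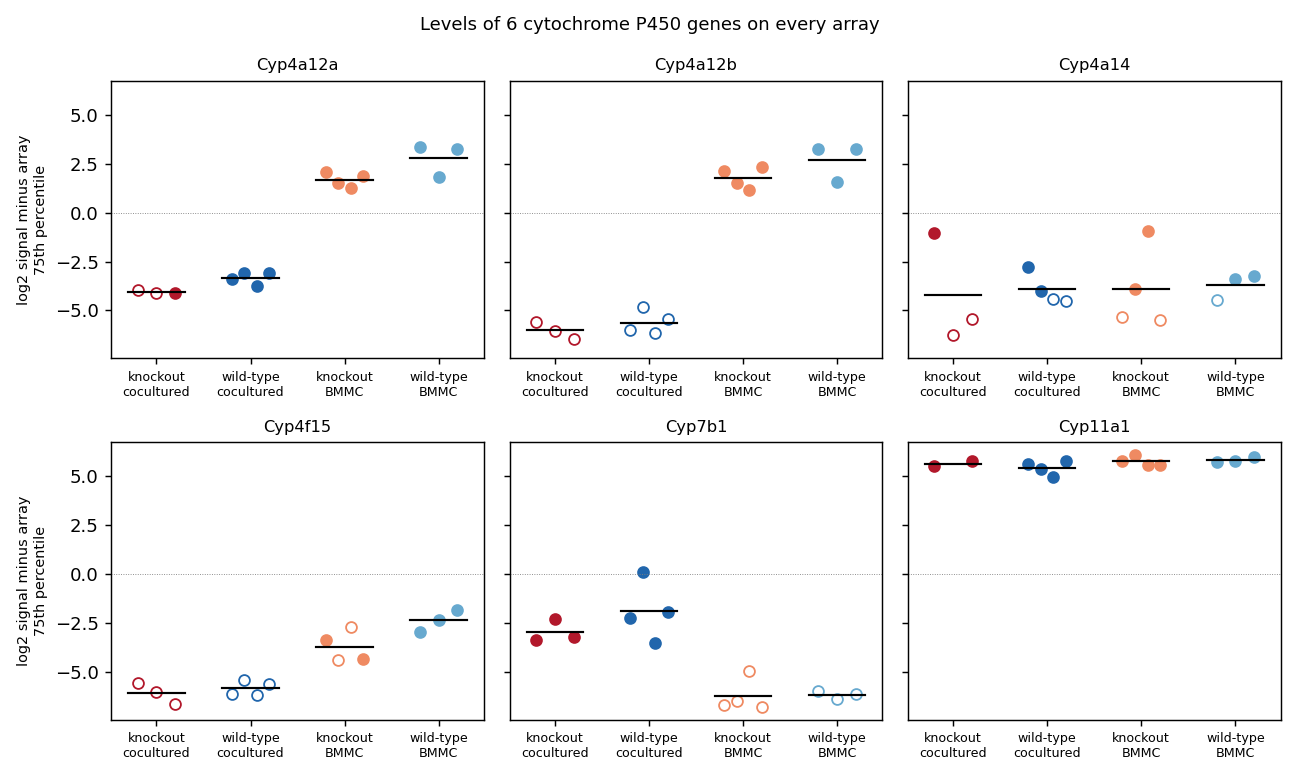
Levels of 6 P450 genes on every array, as log2 signal minus the 75th percentile of the array (vertical axis), by group (horizontal axis). Filled points were well above background, open points were not, and bars are group means. The Cyp4a12a and Cyp4a12b panels show 7 BMMC arrays above 0 and 7 cocultured arrays below -3, the Cyp7b1 panel shows the opposite order, and Cyp11a1 stays between 4.96 and 6.10. Cyp11a1 has 2 points for knockout cocultured cells because the spot on knockout cocultured 2 was marked as an outlier by the scanner software.

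The reading for Cyp4a10, another fatty acid hydroxylase of the cluster, rested on 1 of its 4 probes. Probe A_52_P340136 read -3.70, -4.41 and -4.23 in knockout cocultured cells and -3.80, -4.06, -2.66 and -3.06 in wild-type cocultured cells. The same probe read 0.69, 0.23, -0.24 and 1.14 in knockout BMMCs and 1.84, 0.10 and 1.69 in wild-type BMMCs, so all cocultured arrays were again below all BMMC arrays. The difference was -4.56 ± 0.48 (SE) in knockout cells and -4.61 ± 0.48 in wild-type cells. With normexp background correction it was -1.27 in knockout cells and -2.18 in wild-type cells. The other probe with signal, A_51_P254895 at chr4:115206200-115206259, was above background on 11 arrays. It averaged -3.85 in knockout cocultured cells and -3.05 in wild-type cocultured cells, against -3.44 in knockout BMMCs and -3.24 in wild-type BMMCs, with overlapping groups. Probes A_52_P6588 and A_52_P257774 were above background on 0 of 14 arrays. Among the 7 BMMC arrays, A_52_P340136 followed the Cyp4a12a probe (Pearson r = 0.92, Spearman rho = 0.93, a description over arrays that share slides), and A_51_P254895 did not (r = 0.05, rho = -0.11). Which transcript of this cluster A_52_P340136 read was not tested, so the Cyp4a10 values are uncertain.

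**Figure D2:**
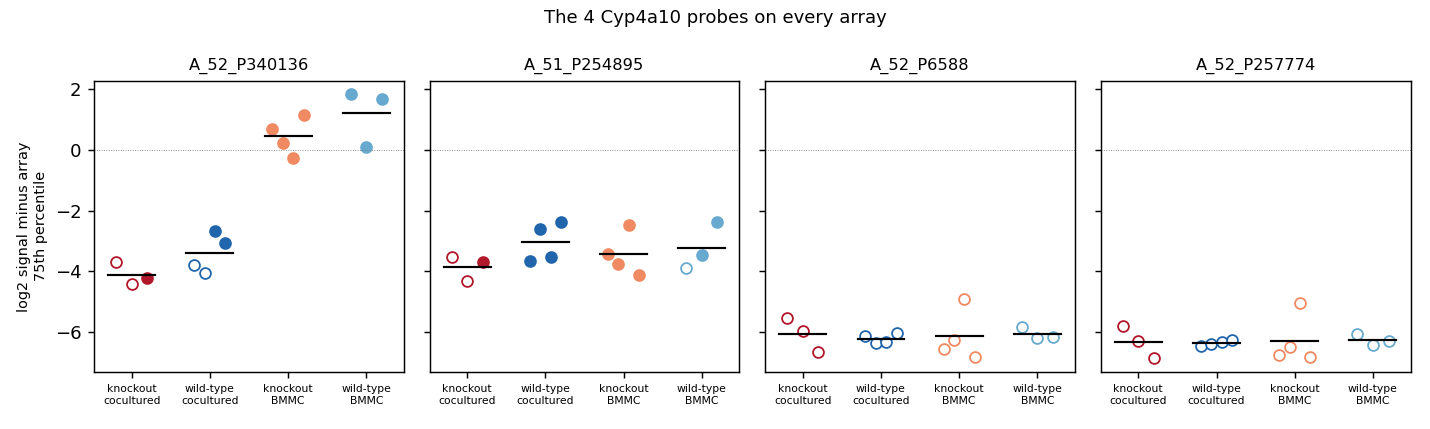
The 4 Cyp4a10 probes on every array, as log2 signal minus the 75th percentile of the array (vertical axis), by group (horizontal axis); filled points were well above background and bars are group means. Only A_52_P340136 separates the BMMC arrays (-0.24 to 1.84) from the cocultured arrays (-4.41 to -2.66), and the other 3 probes show overlapping groups.

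The remaining Cyp4a genes did not share this pattern. Cyp4a14, a strongly Ppara-responsive member in mouse liver, read -1.02, -6.25 and -5.43 in knockout cocultured cells and -2.76, -4.03, -4.41 and -4.52 in wild-type cocultured cells. It read -5.34, -3.93, -0.93 and -5.51 in knockout BMMCs and -4.49, -3.37 and -3.25 in wild-type BMMCs. It was above background on 7 arrays, at least 1 in each group, and the groups overlapped throughout. Cyp4a29 and Cyp4a31 were above background on 0 arrays, with group means of -6.37 to -6.12. The 9 other tested genes or transcripts with a probe within 250 kb of a Cyp4a probe had smaller differences. Among them only Tal1, a haematopoietic transcription factor, passed the test, and it fell by 0.99 in knockout cells (limma, adjusted p = 0.033). In wild-type cells its change was -0.75 (limma, adjusted p = 0.098). Over all 9 the coculture change ran between -1.39 and 0.58 in knockout cells and between -1.05 and 0.36 in wild-type cells.

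Of the 34 tested P450 genes, 5 were called in knockout cells and 5 in wild-type cells, where 14.3% and 12.9% of all 16012 genes were called (limma, adjusted p under 0.05). Since the family was picked on this contrast, the counts are given without a reading. In each genotype they were the 3 Cyp4a genes described above, for which the call is no test, with Cyp4f15 and Cyp7b1. In knockout cells 6.5% of all genes were called lower and 7.78% higher, and in wild-type cells 6.87% lower and 6.02% higher. Both comparisons have their own BMMC controls. The median change of the 34 genes was -0.28 in knockout cells, against 0.07 over all genes, and 0.07 in wild-type cells, against -0.06 over all genes. Without the slide 4 pair 9 genes were called in each, where 30.9% of all genes were called in knockout cells and 23.6% in wild-type cells.

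**Figure D3:**
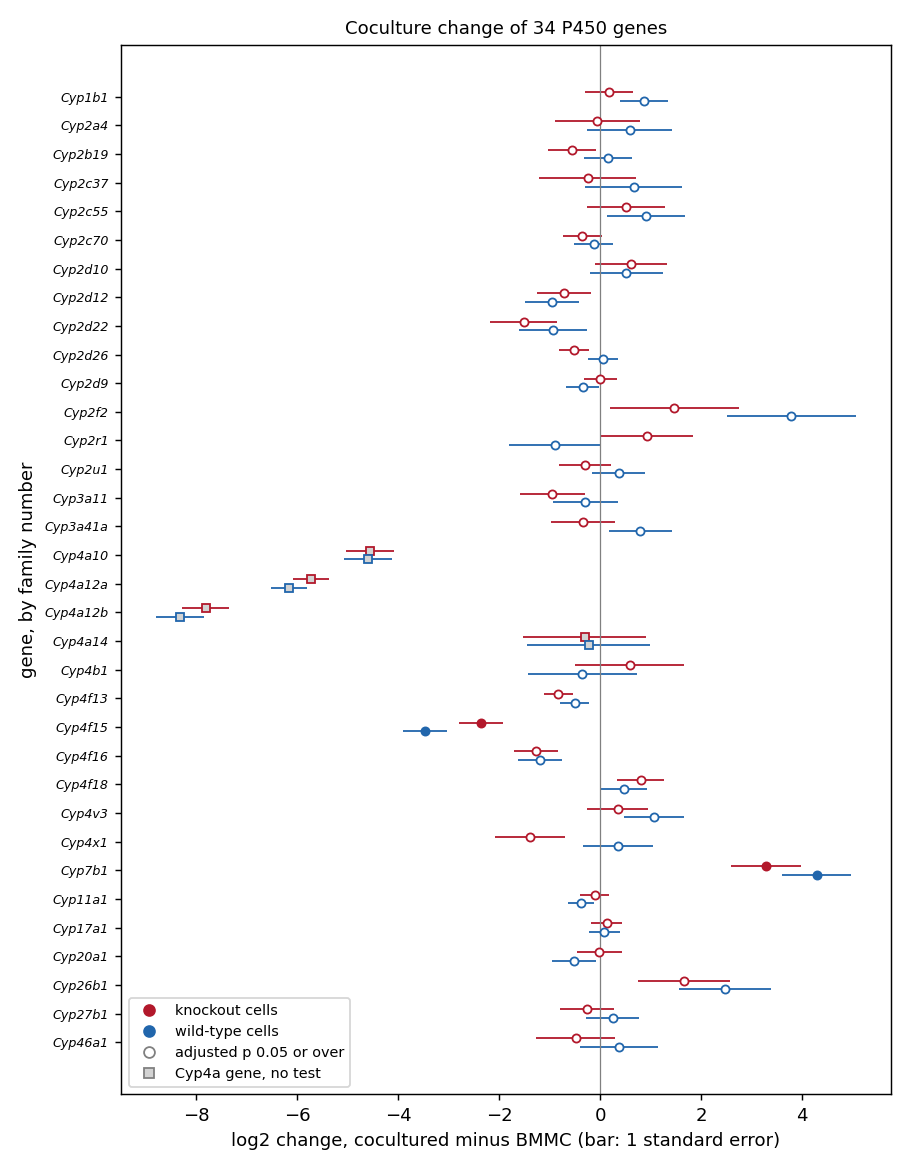
Coculture change of the 34 tested P450 genes (rows, by family number) as the log2 difference between cocultured cells and BMMCs (horizontal axis), with bars of 1 standard error, in knockout cells and wild-type cells. Grey squares are the Cyp4a genes, shown without a test, and filled circles had an adjusted p under 0.05. Cyp4a10, Cyp4a12a, Cyp4a12b and Cyp4f15 lie to the left of 0 and Cyp7b1 to the right, and the other circles are open in both genotypes.

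Cyp4f15, on chromosome 17, fell as well, by a smaller amount. This fatty acid hydroxylase, with its probe at chr17:32840088-32840147 (mm9, + strand), read -5.55, -6.01 and -6.65 in knockout cocultured cells and -6.13, -5.43, -6.19 and -5.63 in wild-type cocultured cells, none above background. It read -3.40, -4.39, -2.71 and -4.35 in knockout BMMCs, of which 2 were above background, and -2.94, -2.34 and -1.82 in wild-type BMMCs, all above background. It fell in both genotypes, by 2.36 ± 0.44 (SE) in knockout cells (limma, adjusted p = 0.00435) and by 3.47 ± 0.44 in wild-type cells (adjusted p = 3e-04). The gene passed the limit of 3 arrays through BMMC arrays alone, so these p-values are a description and no independent test. Against the lowest signal above background it was at least 1.29-fold lower in coculture in knockout cells and at least 3.24-fold lower in wild-type cells. The calls depended on readings below background. With those readings raised to the lowest signal above it, the change was -0.41 in knockout cells (limma, adjusted p = 0.578) and -1.70 in wild-type cells (adjusted p = 0.0141), so the call ended in knockout cells. With normexp background correction and its offset the change was 0.39 in knockout cells (limma, adjusted p = 0.387) and -0.66 in wild-type cells (adjusted p = 0.259), and both calls ended. They also ended with the authors' normalized intensities, where values under 1 were set to 1 before log2. The change of 0 in both genotypes there comes with that floor and is no measured absence of change.

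Cyp4f16 and Cyp4f13, of the same chromosome, did not pass. Cyp4f16 read 0.28, -0.43 and -2.0 in knockout cocultured cells and -0.98, -0.30, 0.04 and -0.28 in wild-type cocultured cells, against 0.25, 0.84, 0.32 and 0.80 in knockout BMMCs and 1.02, 0.62 and 0.82 in wild-type BMMCs. The groups did not overlap in wild-type cells, where the change was -1.20 ± 0.44 (limma, adjusted p = 0.0954). In knockout cells it was -1.27 ± 0.44 (adjusted p = 0.072). Without the slide 4 pair Cyp4f16 passed in wild-type cells, at -1.34 (limma, adjusted p = 0.00651). Without knockout cocultured 1 it passed in knockout cells, at -1.77 (adjusted p = 0.0281), and without knockout cocultured 3 in wild-type cells (adjusted p = 0.0145). Cyp4f13 averaged -0.24 ± 0.43 in knockout cocultured cells, 0.12 ± 0.48 in wild-type cocultured cells, 0.59 ± 0.18 in knockout BMMCs and 0.62 ± 0.10 in wild-type BMMCs (SD, n = 3, 4, 4 and 3), and its change was -0.83 in knockout cells (limma, adjusted p = 0.0717) and -0.51 in wild-type cells (adjusted p = 0.295), with groups that did not overlap. Cyp4f18, which hydroxylates leukotriene B4 in mouse neutrophils and lies on chromosome 8, had a change of 0.80 ± 0.46 in knockout cells and 0.46 ± 0.46 in wild-type cells and was above background on all arrays.

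Cyp7b1 went the other way. This oxysterol hydroxylase, with its probe at chr3:17972286-17972345 (mm9, - strand), read -3.39, -2.28 and -3.21 in knockout cocultured cells and -2.23, 0.09, -3.54 and -1.92 in wild-type cocultured cells, all above background. It read -6.72, -6.49, -4.95 and -6.81 in knockout BMMCs and -5.99, -6.42 and -6.14 in wild-type BMMCs, none above background. It rose in both genotypes, by 3.28 ± 0.69 (SE) in knockout cells (limma, adjusted p = 0.00833) and by 4.28 ± 0.69 in wild-type cells (adjusted p = 0.00158). The gene passed the limit of 3 arrays through cocultured arrays alone, so these p-values are a description and no independent test. As bounds, it was at least 2.03-fold higher in coculture in knockout cells and at least 4.39-fold higher in wild-type cells. Within slides the change was 3.33, 4.21 and 3.61 in knockout cells on slides 1, 2 and 4, and 4.19 and 5.22 in wild-type cells on slides 2 and 3. With readings below background raised to the lowest signal above it, the change was 1.02 in knockout cells (limma, adjusted p = 0.355) and 2.13 in wild-type cells (adjusted p = 0.0552), so both calls ended. They also ended with normexp background correction and its offset, at 0.79 in knockout cells and 0.60 in wild-type cells. With the authors' normalized intensities, floored at 1 before log2, both calls ended as well. The Cyp7b1 change was then 0 in knockout cells and 1.08 in wild-type cells.

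Fibroblast markers moved with Cyp7b1. Of 28 tested markers, 15 rose in knockout cells and 23 in wild-type cells, where 7.78% and 6.02% of all genes were called higher. Their summed level, on the log2 scale, was 4.58, 5.06 and 6.16 on knockout cocultured arrays and 7.13, 8.90, 4.29 and 7.27 on wild-type cocultured arrays, against 1.29 to 4.32 on knockout BMMC arrays and 2.41 to 4.64 on wild-type BMMC arrays. Wild-type cocultured 2 had the highest marker sum and the highest Cyp7b1, and wild-type cocultured 3 the lowest of both among wild-type cocultured arrays. Among knockout cocultured arrays the order differed, with Cyp7b1 highest on number 2 (-2.28) and the marker sum highest on number 3. The labels give a purity of over 99% for the collected cells. The part of fibroblast RNA in the Cyp7b1 change was not tested, and in bulk RNA more cells of a type cannot be told apart from more RNA per cell.

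Cyp2f2 and Cyp26b1 were above background on cocultured arrays alone, and neither passed; both were singled out after their values were seen. Cyp2f2, which activates naphthalene in mouse lung, read -5.56, -4.94 and -3.52 in knockout cocultured cells and -2.77, 1.24, -6.32 and -0.88 in wild-type cocultured cells, against -6.81 to -4.94 in knockout BMMCs and -6.21 to -5.50 in wild-type BMMCs. Cyp26b1, the retinoic acid hydroxylase, read -3.80, -3.82 and -1.99 in knockout cocultured cells and -1.19, -1.34, -5.70 and -2.51 in wild-type cocultured cells, against -5.09 to -4.72 in knockout BMMCs and -6.18 to -4.04 in wild-type BMMCs. Both were above background on knockout cocultured 3 and wild-type cocultured 1, 2 and 4, the 4 arrays with the highest fibroblast marker sums. Of the cocultured arrays, these also had the largest shares of all tested genes above background, at 92.8%, 88.8%, 93.6% and 91.6%. Knockout cocultured 1 and 2 had 79% and 83.6%, and wild-type cocultured 3 had 84.8%. The part of fibroblast RNA or of array signal in these readings was not tested. The change in wild-type cells was 3.78 ± 1.28 for Cyp2f2 (limma, adjusted p = 0.0715) and 2.48 ± 0.91 for Cyp26b1 (adjusted p = 0.0966). Without the slide 4 pair the change in wild-type cells was 5.16 for Cyp2f2 (limma, adjusted p = 0.00163) and 3.48 for Cyp26b1 (adjusted p = 0.00072). The pair left out holds wild-type cocultured 3, the lowest wild-type cocultured reading of both genes (-6.32 and -5.70). Both genes also passed the limit of 3 arrays through cocultured arrays alone. All these p-values are therefore a description and no independent test.

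**Figure D4:**
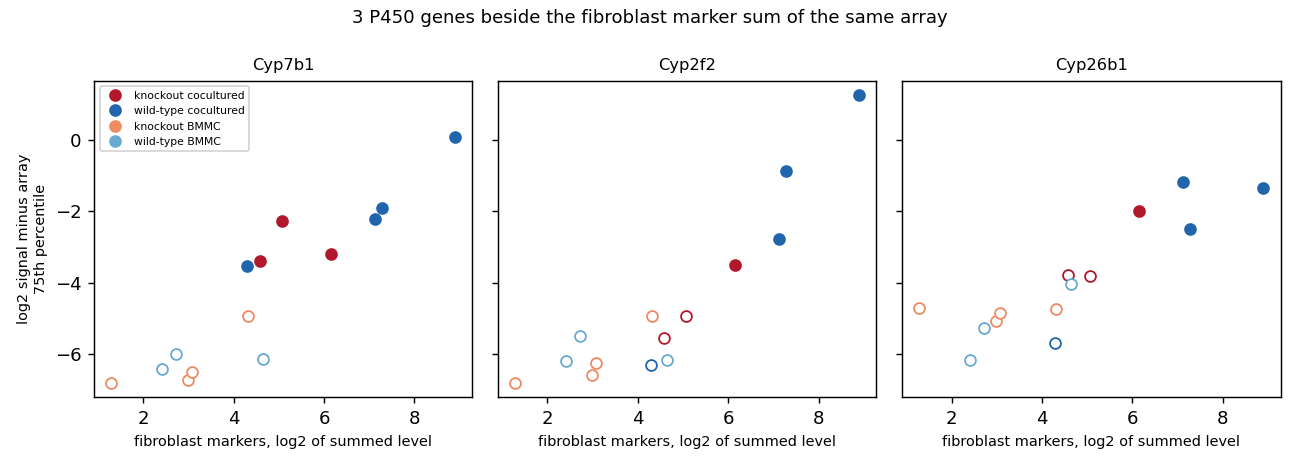
Levels of Cyp7b1, Cyp2f2 and Cyp26b1 (vertical axis, log2 signal minus the 75th percentile of the array) beside the summed level of 28 fibroblast markers on the same array (horizontal axis, log2). Each point is 1 array, coloured by group, and filled where the gene was well above background. The highest Cyp7b1 (0.09) and Cyp2f2 (1.24) values stand on the array with the highest marker sum (8.90), and BMMC arrays lie at the lower left.

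Cyp11a1, Cyp17a1 and Cyp46a1, which act on cholesterol or steroids, did not pass in any comparison. Cyp11a1, the side-chain cleavage enzyme, was well above the 75th percentile everywhere, at 5.66 ± 0.16 in knockout cocultured cells, 5.46 ± 0.37 in wild-type cocultured cells, 5.77 ± 0.24 in knockout BMMCs and 5.84 ± 0.12 in wild-type BMMCs (SD, n = 2, 4, 4 and 3). Its coculture change was -0.11 ± 0.28 (SE) in knockout cells and -0.38 ± 0.25 in wild-type cells, neither called (limma). Another Cyp11a1 probe averaged 5.36 in knockout cocultured cells, 5.17 in wild-type cocultured cells, 5.44 in knockout BMMCs and 5.54 in wild-type BMMCs. The remaining probe of the gene differed in pattern, at 1.26 in knockout cocultured cells, 1.63 in wild-type cocultured cells, 2.35 in knockout BMMCs and 2.15 in wild-type BMMCs. Cyp17a1, the steroid hydroxylase and lyase, averaged -1.01 ± 0.28, -0.76 ± 0.39, -1.14 ± 0.41 and -0.84 ± 0.42 in knockout cocultured cells, wild-type cocultured cells, knockout BMMCs and wild-type BMMCs (SD, n = 3, 4, 4 and 3). Cyp46a1, the cholesterol hydroxylase best known from neurons, lay between -3.59 and -1.46 on 13 arrays and at 0.48 on knockout BMMC 3.

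Cyp1b1, which oxidises oestrogens and aromatic hydrocarbons and is induced by the Ah receptor in many mouse cells, averaged 2.47 ± 0.15 in knockout cocultured cells, 2.86 ± 0.84 in wild-type cocultured cells, 2.30 ± 0.83 in knockout BMMCs and 2.0 ± 0.39 in wild-type BMMCs (SD, n = 3, 4, 4 and 3). It was high on wild-type cocultured 2 (4.06) and knockout BMMC 4 (3.51), the groups overlapped, and its change was 0.17 ± 0.48 (SE) in knockout cells and 0.87 ± 0.48 in wild-type cells. Of the vitamin D enzymes, Cyp27b1, which makes the active hormone, was above background on 11 arrays and Cyp2r1, which hydroxylates vitamin D in an earlier step, on 10. Cyp27b1 changed by -0.26 ± 0.53 in knockout cells and 0.24 ± 0.53 in wild-type cells. Cyp2r1 read -1.67, -2.92 and -4.77 in knockout cocultured cells and -4.09, -4.99, -1.11 and -5.01 in wild-type cocultured cells, against -5.08 to -3.27 in knockout BMMCs and -3.44 to -2.20 in wild-type BMMCs. The slide 4 arrays were thus at the opposite end from the others of their label. Cyp20a1, an enzyme of unknown substrate, Cyp2c70, a bile acid hydroxylase of mouse liver, and Cyp2d9, a testosterone hydroxylase of male mouse liver, changed by -0.52 to 0.00 in the 2 genotypes. Cyp4v3, a fatty acid hydroxylase, changed by 0.35 in knockout cells and 1.07 in wild-type cells, and Cyp2d26 by -0.51 and 0.06, none of them called. The other Cyp2d9 probe, above background on 13 arrays, differed in pattern. It averaged -3.77 in knockout cocultured cells and -2.45 in wild-type cocultured cells, against -2.41 in knockout BMMCs and -1.31 in wild-type BMMCs. The dim members Cyp2a4, Cyp2b19, Cyp2c37, Cyp2c55, Cyp2d10, Cyp2d12, Cyp2d22, Cyp2u1, Cyp3a41a and Cyp4x1 were above background on 3 to 8 arrays. Their changes ran between -1.52 and 0.61 in knockout cells and between -0.95 and 0.90 in wild-type cells, none called. The value of 0.61 was that of Cyp2d10, whose other probe, above background on 9 arrays, had the opposite direction. That probe averaged -4.24 in knockout cocultured cells and -3.66 in wild-type cocultured cells, against -3.55 in knockout BMMCs and -3.15 in wild-type BMMCs. Cyp3a11, a drug-metabolising enzyme of mouse liver, had a change of -0.95 in knockout cells and -0.29 in wild-type cells, and Cyp4b1 one of 0.58 and -0.35, neither called.

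**Figure D5:**
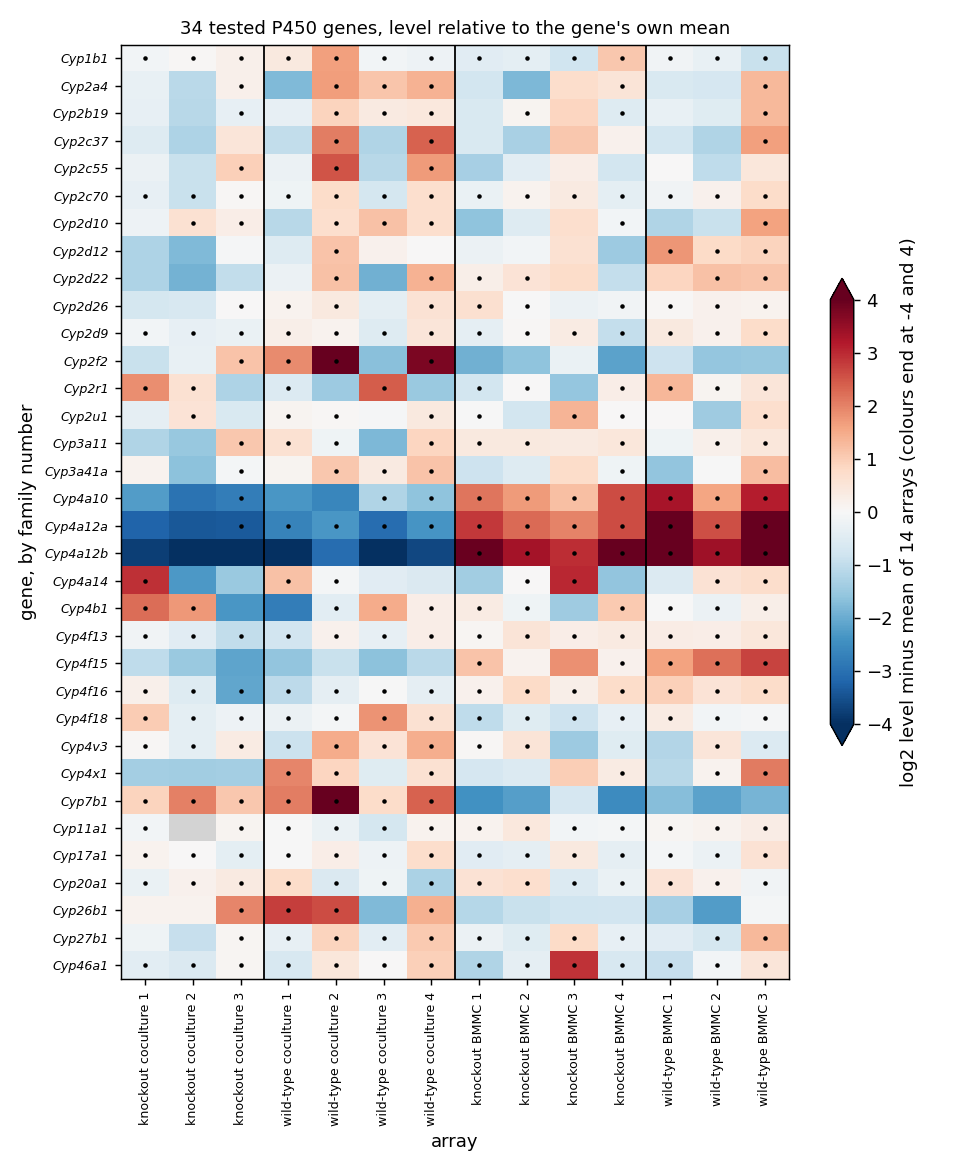
The 34 tested P450 genes (rows, by family number) on 14 arrays (columns, by group), coloured by the log2 level minus the gene's own mean over the arrays. Dots mark readings well above background and grey marks a spot left out. The Cyp4a10, Cyp4a12a and Cyp4a12b rows are blue on all 7 cocultured arrays and red on all 7 BMMC arrays.

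Samples labelled knockout were compared with samples labelled wild-type, in cocultured cells and in BMMCs. In cocultured cells 0 of 34 P450 genes were called, as were 0% of all genes (limma). An unadjusted p under 0.05 was found for 607 of 16012 genes and, a larger share, for 3 of 34 P450 genes. In BMMCs 0 of 34 were called, again beside 0% of all genes (limma). An unadjusted p under 0.05 was found for 169 of 16012 genes and, a larger share, for 3 of 34 P450 genes. These were Cyp4a12a, with a difference of -1.15 ± 0.36 (SE), Cyp4f15 (-1.34 ± 0.44) and Cyp2d12, a liver and kidney P450 (-1.45 ± 0.54), each with a limma adjusted p of 1. Cyp4f15 and Cyp2d12 were above background on all 3 wild-type BMMC arrays, the higher side, which alone met the limit of 3 arrays, against 2 and 0 of 4 knockout BMMC arrays. Cyp4a12a was lower in BMMCs labelled knockout within all 3 shared slides, by differences of -1.28, -0.31 and -2.04, but the groups overlapped. For Cyp4a12b the difference was -0.91 ± 0.47 and for Cyp4a10 -0.76 ± 0.48. The 9 neighbours of the cluster differed by -0.65 to 0.33 between the BMMC groups, none called. The difference between the 2 genotypes in the coculture change was itself called for 0 of 34 genes, beside 0% of all genes (limma), with 0 of 34 and 131 of 16012 at an unadjusted p under 0.05. It was 0.43 ± 0.51 for Cyp4a12a, 0.51 ± 0.66 for Cyp4a12b, 1.11 ± 0.62 for Cyp4f15 and -1.0 ± 0.97 for Cyp7b1.

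The count between cocultured genotypes depended on the slide 4 pair. Without it 8 of 34 P450 genes, 23.5%, were past the threshold, beside 25.3% of all genes, and since the pair was set apart by how it sat between the 2 labels, this is a description and no test. Cyp2f2, Cyp4x1, Cyp2d22, Cyp26b1, Cyp3a11 and Cyp2d26 were then lower in cells labelled knockout. None of these 6 was above background on knockout cocultured 1 or 2, so no fold is given. Cyp4b1 and Cyp2r1 were higher, with Cyp4b1 at -0.73 and -1.24 on those 2 knockout arrays, against -5.71, -3.37 and -2.69 on wild-type cocultured 1, 2 and 4. The genotype difference in the coculture change was past the threshold for 4 of 34 genes, Cyp2f2, Cyp26b1, Cyp3a11 and Cyp2r1, beside 12.7% of all genes. Within slide 4, Cyp2f2 was 2.80 higher and Cyp2r1 differed by -3.65 in the knockout cocultured array, the opposite signs to those without the pair. Other measures moved with the same arrays. Without the pair the fibroblast marker sums were 4.58 and 5.06 in knockout cocultured cells, against 7.13, 8.90 and 7.27 in wild-type cocultured cells, and on slide 4 they were 6.16 in knockout and 4.29 in wild-type. The Y-linked gene Eif2s3y read -5.57 and -6.30 on knockout cocultured 1 and 2 and 2.82 on knockout cocultured 3, against 2.56 to 3.3 on the 4 wild-type cocultured arrays. The share of all tested genes above background was 79% and 83.6% on knockout cocultured 1 and 2. It was 88.8%, 93.6% and 91.6% on wild-type cocultured 1, 2 and 4. On slide 4 it was 92.8% in knockout and 84.8% in wild-type. Without the pair, genotype, fibroblast marker level, Y-linked signal and the share of genes above background cannot be told apart.

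Redox partners and haem enzymes were followed beside the P450 genes. Of 14 tested, 2 rose and 0 fell in each genotype, a share near the 14.3% of all genes called in knockout cells and 12.9% in wild-type cells. Hmox1, which degrades haem, rose by 5.19 ± 0.79 (SE) in knockout cells (limma, adjusted p = 0.00136) and by 3.22 ± 0.79 in wild-type cells (adjusted p = 0.0181), and Cyb5r3, which reduces cytochrome b5, rose by 0.95 and 1.01. Por changed by 0.61 ± 0.27 in knockout cells (limma, adjusted p = 0.147) and 0.03 ± 0.27 in wild-type cells (adjusted p = 0.963), neither called.

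Among 13 tested nuclear receptors with the Ah receptor, 2 fell in knockout cells, 1 fell in wild-type cells and 0 rose, where 6.5% and 6.87% of all genes were called lower. Rxrg, a partner receptor of the PPARs, was above background on 0 cocultured arrays. It was at least 8.54-fold lower in coculture in knockout cells (limma, adjusted p = 0.000888) and at least 7.34-fold lower in wild-type cells (adjusted p = 0.00122). Rxrg passed the limit of 3 arrays through BMMC arrays alone, so its p-values are a description and no independent test. Rara, a retinoic acid receptor, fell in knockout cells alone by the test, by 1.56 (adjusted p = 0.0228), and the difference between genotypes was not called. Of 15 tested PPAR target genes outside the P450 family, 1 rose in knockout cells, 2 rose in wild-type cells and 0 fell, where 7.78% and 6.02% of all genes were called higher. Cpt1a, which admits fatty acids to mitochondria, rose by 0.82 in knockout cells (limma, adjusted p = 0.0452) and by 1.04 in wild-type cells (adjusted p = 0.0162). Acot1, an acyl-CoA thioesterase, rose in wild-type cells, with a bound of at least 2.85-fold higher (adjusted p = 0.0122). The median change of the 15 was -0.14 in knockout cells, against 0.07 over all genes, and -0.12 in wild-type cells, against -0.06 over all genes.

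Of 4 tested Ah receptor targets outside the family, 0 were called in either genotype, where 14.3% of all genes were called in knockout cells and 12.9% in wild-type cells. Nqo1 changed by 3.47 ± 1.24 in knockout cells (limma, adjusted p = 0.0812) and 0.95 ± 1.24 in wild-type cells (adjusted p = 0.705). Of 8 tested genes for epoxide hydrolases and retinoid handling, 2 rose and 0 fell in each genotype, where 7.78% and 6.02% of all genes were called higher. Ephx1, an epoxide hydrolase that opens epoxides P450 enzymes make, rose by 3.06 ± 0.37 (SE) in knockout cells (limma, adjusted p = 0.000293) and by 3.08 ± 0.37 in wild-type cells (adjusted p = 0.000209). Fibroblast marker levels rose on the same arrays, and their part in this change was not tested.

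Promoter sequences from RefSeq (GRCm38.p6, 250 bases before to 50 after the start) matched 59 of the 81 genes by symbol, with 68 promoters. Cyp4a10, Cyp4a12a, Cyp4a12b, Cyp4a14 and Cyp7b1 were not among the 59 and were not searched. The nuclear receptor direct repeat, which is the hexamer AGGTCA written again after a spacer of 1 base (N), searched on both strands, was in 0 of the 68 and in 0.0396% of all 32851 promoters. The hexamer AGGTCA, of which the direct repeat is made, was on either strand of 26.5% of P450 promoters and 16.3% of all promoters, Cyp11a1, Cyp2f2, Cyp4a29 and Cyp2c70 among them. The Ah receptor core GCGTG was on either strand of 22.1% of P450 promoters and 32.4% of all promoters, Cyp1b1 and Cyp1a1 among them. These matches are a description of the letters in that window.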

How the data were processed

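Gene expression was measured on 14 one-colour Agilent arrays. Per the file headers and the submitters' processing notes, each deposited spot intensity came from Agilent Feature Extraction 9.5.1.1. Spatial detrending and multiplicative detrending were both switched on, no separate background subtraction was made, and probe positions are on mm9. Scaling between arrays is not in these files. The authors' normalized intensity in a deposited annotated table of 25193 probes served as an alternative, and 42 other per-sample columns were not used. Of these intensities 59% to 59.8% per array were below 0, and all values under 1 were set to 1 before log2.

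The deposited processed intensity was divided by the array's 75th percentile (69.4 to 176 units) and expressed as log2. Control spots and 74 to 326 outlier spots per array were left out. Of 41174 probes, 23616 were well above background on at least 3 arrays, 32 of them were dropped for missing values, and the brightest probe per gene left 16012 genes. Names came from RefSeq by accession (24844 probes) or by symbol or synonym (7855), and 8475 kept the file's name. The number of arrays limits the precision. The 4 groups were fitted together with limma 3.58.1 (R 4.3.3), with 5 contrasts, two-sided tests and Benjamini-Hochberg adjustment over all genes. "Rose", "fell" and "called" mean an adjusted p under 0.05. Where a group had 0 arrays above background, a bound was taken against the lowest signal above it. Same-numbered knockout and wild-type BMMC arrays deviated together (r of 0.197, 0.497 and 0.491 across genes), and each such pair also shares a slide. Same-numbered knockout and wild-type cocultured arrays deviated in opposite directions (r of -0.429, -0.15 and -0.544), and the last of these pairs shares a slide. Same-numbered cocultured and BMMC arrays of the same genotype had r of -0.062 to 0.12.

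The members, gene lists and alternatives were chosen with earlier results of these data known. Named genes are Pla2g3, all Cyp4a genes, P450 genes above background throughout at least 1 group or called in a contrast, up to 4 called genes per list, and genes within 250 kb of a Cyp4a probe. Por, fibroblast genes and the remaining P450 genes in the text were named after their values were seen. Some results under this rule are not reported here. Alternatives covered background correction, scaling, filters, slide, replicate number, single arrays, the slide 4 pair, probe choice and naming. Normexp background correction was run with an offset of 50 units, where the array's 75th percentile was 69.4 to 176 units.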

Additional observations from a re-analysis of the deposited data

Results flagged for a closer look

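Cyp17a1, the steroid hydroxylase and lyase, read -0.54 on knockout BMMC 3, against -1.41 to -1.30 on the other 3 knockout BMMC arrays. The gap to the nearest of the others was 0.879 of the group's range, above Dixon's critical value for 4 arrays. Among 44 groups of 4 arrays examined for 22 named genes, 1 stood out this way, and chance flags about 1 in 20. The array lies on slide 3, where Cyp17a1 was also high within the other groups: -0.68 and -0.25 on wild-type cocultured 2 and 4, against -0.96 and -1.14 on wild-type cocultured 1 and 3, and -0.36 on wild-type BMMC 3, against -1.0 and -1.16 on wild-type BMMC 1 and 2. The same array had the highest lowest signal above background of the 14 (-2.76) and 293 outlier spots, and the part of slide or signal in this reading was not tested.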

How the results depend on the processing

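With normexp background correction 2 P450 genes were called for coculture in knockout cells and 3 in wild-type cells, in place of 5 and 5. The share of all genes called was also lower, at 5.58% and 5.47% in place of 14.3% and 12.9%. The offset of 50 units in that setting shrinks differences of dim genes by itself. With the authors' normalized intensities, floored at 1 before log2, the counts were again 2 and 3, beside 3.58% and 4.84% of all genes. With readings below background raised to the lowest signal above it, 3 were called in knockout cells, beside 12.1% of all genes. Without the slide 4 cocultured pair the counts were 9 in knockout cells, 9 in wild-type cells, 8 between the cocultured genotypes and 4 for the difference between genotypes, as a description of the remaining arrays. Leaving out 1 array at a time gave 5 to 6 in knockout cells, 5 to 7 in wild-type cells and 0 in the other 3 comparisons. Cyp4f15 had the opposite sign in knockout cells with normexp, 0.39. Causes were not tested. With the replicate block, and with slide as a block, 5, 5, 0, 0 and 0 genes were called, so neither changed a count. Signal near background limits Cyp4f15, Cyp7b1, Cyp2f2, Cyp26b1, Cyp4x1, Cyp2d22, Cyp2d12, Cyp3a11 and Cyp2d26, whose differences rest in part on readings below it.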

Other observations

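Y-linked and Xist signals differed between arrays of the same group, and are set beside Cyp4a12a, a male-predominant gene in mouse liver and kidney. The Y-linked gene Eif2s3y read 3.06 on knockout BMMC 2 and 2.98 on wild-type BMMC 2, where Xist read -5.26 and -6.43. On the other 5 BMMC arrays Eif2s3y lay between -6.68 and -4.19 and Xist between 5.60 and 5.95. Cyp4a12a read 1.52 on knockout BMMC 2 and 1.83 on wild-type BMMC 2, within the range of 1.24 to 3.36 on the other 5. Among cocultured arrays Eif2s3y read 2.82 on knockout cocultured 3 and 2.56 to 3.3 on the 4 wild-type arrays, and -5.57 and -6.30 on knockout cocultured 1 and 2. Cyp4a12a was between -4.12 and -3.07 on all 7 of them. Xist read 5.38 and 5.66 on knockout cocultured 1 and 2. It read 1.15 on knockout cocultured 3 and 1.60, 3.41, -0.84 and 1.48 on wild-type cocultured 1, 2, 3 and 4. These cocultured arrays with Eif2s3y signal thus had more Xist signal than knockout BMMC 2 and wild-type BMMC 2. No test was made.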
